A study of Homo sapiens with 8 samples.

Results

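Binding of the RUNX1-4D mutant was compared with that of wild-type RUNX1 (WT) in HEL cells, with 2 replicate libraries for each form. These are 4 of the 8 libraries of the series and 4 of the 6 with a peak list. Regions entered the comparison by a fixed rule. Within each replicate number the longer list was shortened to the length of the shorter by the authors' −log10 q, the peaks of the 4 lists were merged wherever they overlapped by at least 1 bp, and the outcome was 25535 regions on chromosomes 1 to 22 and X. A library is said to call a region where one of its kept peaks lies in it, and 3697 regions were called in all 4.

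RUNX1 is the DNA-binding subunit of core binding factor. It pairs with CBFβ, recognizes short RUNX motifs through its Runt domain, and recruits coactivators or corepressors from its C-terminal part. It is required for blood stem cell formation and for the maturation of megakaryocytes, the cells that shed platelets, and inherited RUNX1 mutations cause a familial platelet disorder. Cyclin-dependent kinases, MAP kinases and other enzymes modify the protein on serine and threonine residues, and PRMT1 methylates it on arginine.

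HEL is an erythroleukemia line with both erythroid and megakaryocytic traits. Per its title, the series asks how phosphorylation of RUNX1 bears on the choice between these fates. By the usual naming of such constructs, 4D carries aspartate in place of serine or threonine residues, a mimic of the phosphorylated state. The labels do not say which residues were changed. All libraries came from cells transduced with an HA-tagged construct or an empty vector and kept in 2 µg/ml puromycin. The WT and 4D libraries thus differ by label only in the RUNX1 form. The RUNX1-4A libraries are used here for side values alone. CUT&RUN was done on 500000 cells per sample with an antibody to the HA tag, which directs a nuclease to cut beside the tagged protein. The empty vector line served as background for peak calling. RUNX1 made by the cells from their own gene was therefore not measured. Nor were the level of the tagged proteins and the expression of erythroid or megakaryocytic markers, since a peak list holds neither. The sources used here do not say whether a line was 1 clone or a pool.

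Promoters under some regions that ranked higher or lower with 4D, or were called with WT only, are printed here as examples. Each is the 250 bases before the annotated start of the gene, from RefSeq on GRCh38.p14, and each held the middle summit of its region. Bases matching the RUNX motif cores TGTGGT or TGCGGT on either strand are in capitals, and a match describes letters and not a bound site. The first 3 lie under regions that ranked higher with 4D in both replicate numbers.
CIAO1 promoter, chr2:96265975-96266224, plus strand: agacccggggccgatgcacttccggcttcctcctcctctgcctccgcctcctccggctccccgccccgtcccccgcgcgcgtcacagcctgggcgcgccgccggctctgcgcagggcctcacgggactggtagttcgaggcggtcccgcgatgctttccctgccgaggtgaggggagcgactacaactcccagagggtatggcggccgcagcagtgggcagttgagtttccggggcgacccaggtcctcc
CHMP4B promoter, chr20:33811098-33811347, plus strand: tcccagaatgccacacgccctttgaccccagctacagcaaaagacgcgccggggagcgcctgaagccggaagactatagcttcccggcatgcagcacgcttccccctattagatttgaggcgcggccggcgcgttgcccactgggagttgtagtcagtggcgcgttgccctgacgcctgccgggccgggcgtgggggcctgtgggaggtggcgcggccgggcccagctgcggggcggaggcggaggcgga
ALAD promoter, chr9:113401285-113401534, minus strand: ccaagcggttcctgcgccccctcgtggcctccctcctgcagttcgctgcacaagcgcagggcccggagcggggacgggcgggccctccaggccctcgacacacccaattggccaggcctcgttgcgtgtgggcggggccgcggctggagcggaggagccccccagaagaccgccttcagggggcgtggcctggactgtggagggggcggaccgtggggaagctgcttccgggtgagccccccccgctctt

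The next 4 lie under regions that ranked lower with 4D in both numbers, and the last under a region called with WT only.
CAMTA1 promoter, chr1:6785204-6785453, plus strand: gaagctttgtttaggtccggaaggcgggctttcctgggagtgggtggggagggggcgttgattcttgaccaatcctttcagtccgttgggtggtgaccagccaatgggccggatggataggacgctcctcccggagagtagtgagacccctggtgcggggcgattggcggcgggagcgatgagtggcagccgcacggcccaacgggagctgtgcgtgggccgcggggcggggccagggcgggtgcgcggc
GSK3A promoter, chr19:42242603-42242852, minus strand: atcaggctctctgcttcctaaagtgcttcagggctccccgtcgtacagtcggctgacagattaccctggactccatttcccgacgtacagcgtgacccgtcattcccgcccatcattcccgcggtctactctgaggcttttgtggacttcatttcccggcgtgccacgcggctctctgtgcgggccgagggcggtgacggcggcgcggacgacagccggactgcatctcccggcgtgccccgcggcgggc
CCNT1 promoter, chr12:48716708-48716957, minus strand: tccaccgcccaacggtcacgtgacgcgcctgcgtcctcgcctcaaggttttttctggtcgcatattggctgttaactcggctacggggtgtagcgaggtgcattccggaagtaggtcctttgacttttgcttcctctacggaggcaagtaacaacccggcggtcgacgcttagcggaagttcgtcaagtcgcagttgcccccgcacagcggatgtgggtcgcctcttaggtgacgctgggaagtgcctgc
PRMT1 promoter, chr19:49677021-49677270, plus strand: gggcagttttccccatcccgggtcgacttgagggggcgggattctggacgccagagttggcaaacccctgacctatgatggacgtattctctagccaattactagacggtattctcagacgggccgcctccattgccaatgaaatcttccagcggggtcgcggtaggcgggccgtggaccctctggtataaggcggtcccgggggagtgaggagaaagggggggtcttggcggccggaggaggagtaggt
MDH2 promoter, chr7:76047856-76048105, plus strand: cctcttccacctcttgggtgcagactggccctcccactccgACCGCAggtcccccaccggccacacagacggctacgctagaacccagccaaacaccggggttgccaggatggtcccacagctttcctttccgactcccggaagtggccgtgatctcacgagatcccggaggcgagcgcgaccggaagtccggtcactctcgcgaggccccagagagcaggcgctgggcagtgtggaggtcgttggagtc

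Of these 8 promoters, MDH2 alone held a match. Over all 15812 promoters of that table, 15.3% held one in the same 250 bases (2418 promoters). Promoters on chromosome 8 are in none of these shares, as they were not analysed here. Among the promoters under regions called in all 4 libraries the share was 28.9% (228 of 788). It was 23.3% (10 of 43) under regions that ranked at least 10 points higher with 4D in both numbers and 19.4% (7 of 36) under those that ranked lower. Regions of the weaker kind, with a mean rank below the median, held a match in 24.9% of promoters (109 of 437), and it held 40 of the 43 promoters of the higher and 34 of the 36 of the lower regions. Within this kind, the shares were 22.5% for the higher and 17.6% for the lower regions.

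The 4D lists were shorter than the WT lists in both numbers. On the chromosomes used, WT had 6752 peaks in replicate 1 and 25845 in replicate 2, and 4D had 5346 and 21076. That is 0.792 and 0.815 times as many. The gap between replicate numbers was larger than that between forms: 16298.5 ± 13500.8 peaks in WT against 13211.0 ± 11122.8 in 4D (SD, n = 2, exact permutation test, two-sided p = 0.667). The smallest p that an exact permutation test allows with 2 libraries a form is 0.333, or 0.5 if paired by number. Shortening removed 1406 and 4769 WT peaks and no 4D peak. The last WT peak kept and the first left out had the same −log10 q, 5.32 in replicate 1 and 4.34 in replicate 2. At equal length the peaks of 4D were weaker and narrower by their medians. Their median −log10 q was 7.60 and 10.2, against 13.5 in both WT lists, and their median width was 252 and 335 bp, against 309 and 400 bp. The shortening took away only the weakest WT peaks, so it could only raise the WT median −log10 q. The weakest 4D peak kept had 1.31 in both numbers. Medians of the full lists were not computed. Read totals are unknown here, so the depth of each library could not be set beside these values.

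Most regions of the short lists lay in the long lists of either form. Of the regions in a replicate 1 list, 97.8% (WT) and 95.1% (4D) were also in the replicate 2 list of the same form. With the forms crossed the shares were 97.6% (WT replicate 1 in 4D replicate 2) and 94.7% (4D replicate 1 in WT replicate 2). Of the regions of WT replicate 1, 71.4% were in 4D replicate 1, a list of equal length. Between forms of the same number, the shared regions over those in either list were 0.558 (number 1) and 0.645 (number 2). Between numbers of the same form they were 0.244 (WT) and 0.237 (4D), where the unequal list lengths allow at most 0.250 and 0.252. The commonest pattern was that of both replicate 2 lists and no replicate 1 list, with 10098 regions. Next came the regions of a single replicate 2 list (4521 in WT, 4206 in 4D), and then the 3697 of all 4 libraries.

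**Figure D1:**
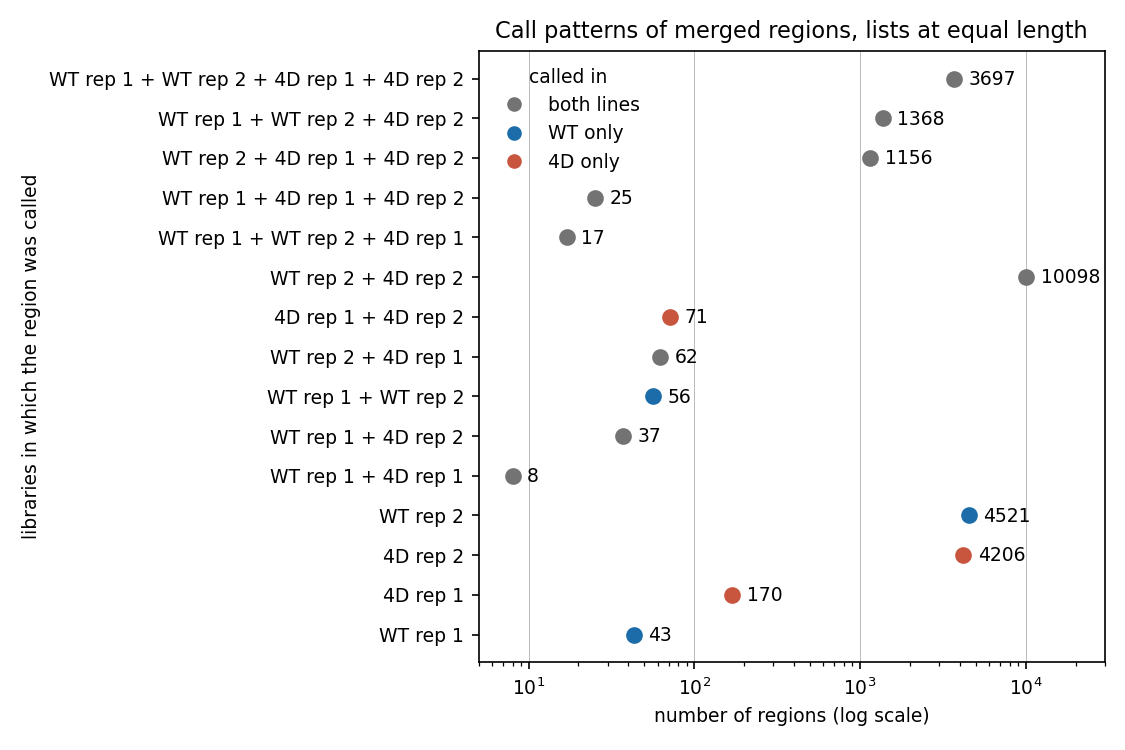
Number of merged regions (horizontal axis, log scale) with each pattern of calls over the 4 libraries, WT and 4D, at equal list length. Grey points are called in both forms, blue in WT only and red in 4D only, and the 71 and 56 regions that split the forms in both numbers are few beside the 10098 of both replicate 2 lists.

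Regions called in both libraries of a form and in neither of the other were rare. With 4D and not WT there were 71, or 0.278% of the 25535 regions, and with WT and not 4D there were 56, or 0.219%. Such counts depended on where the lists end. Without shortening, 38 regions were found with 4D only and 157 with WT only, and with all 4 lists at one length 117 and 136. Of the 71, 33 lay over a weaker WT peak that the shortening had removed, and 38 over no WT peak at all. No such removal could occur on the 4D side.

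Ordered by the lower of its 2 ranks, the first region found with 4D only lay inside SLC1A3, a glutamate transporter (chromosome 5, 36611649 to 36611837). Its percentile rank, with 100 for the strongest peak of a list, was 64.2 in 4D replicate 1 and 71.4 in 4D replicate 2, at a −log10 q of 10.6 and 19.3. It had no peak in either full WT list and ranked 67.3 in 4A replicate 1, the 4A lists being shortened to the same lengths. A region between genes on chromosome 5 (89055095 to 89055479), over 100 kb from any protein-coding gene, came next, with ranks of 87.0 and 62.5 in 4D. Regions inside FBXL13, which encodes an F-box protein, inside KIAA1217 and inside IL16, a chemoattractant cytokine of lymphocytes, and one 40.6 kb from SC5D, which acts in cholesterol synthesis, also had no WT peak. The regions nearest EEF2KMT, which methylates elongation factor 2, and PNPLA4, a lipase, had WT peaks of −log10 q between 2.70 and 3.08 that were too weak to be kept. Both 4A lists called 5 of the 71 regions and neither called 35.

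In the same order, the first region found with WT only lay inside EPM2A, which encodes the glycogen phosphatase laforin. It ranked 68.5 and 70.5 in the WT libraries. Next came regions 58.8 kb from CCDC68 (62.0 and 53.2), inside PTPRG, a receptor tyrosine phosphatase (52.6 and 71.8), and inside DYNLL1, a dynein light chain (44.8 and 52.0). A region at the end of STYXL1, an inactive phosphatase, covered part of the MDH2 promoter printed above (chromosome 7, 76047478 to 76047978). Its rank was 42.6 and 75.3 in WT and 74.9 in 4A replicate 2. MDH2 encodes mitochondrial malate dehydrogenase. Regions nearest SNAP47, a SNARE protein, and nearest MTSS1, an actin-binding protein, were also among the first 8. Of the 56 regions, 41 were called in 1 of the 2 shortened 4A lists, mostly that of replicate 2, and 7 in both. Comparisons of 4A and of 4D with WT share the WT libraries. The share of all regions, or of regions of like rank, that the 4A lists call was not computed. The 4A calls given for the 71, the 56 and the regions named below therefore describe those regions without a baseline.

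Both kinds of region were weak. The lower of the 2 ranks had a median of 14.6 in the regions of 4D only and 16.2 in those of WT only, against 50.3 for the lowest of the 4 ranks in regions called everywhere. Their width also differed, with a median of 302 and 304 bp against 788 bp, although a region merged from 4 peaks is wider by construction. Ends of protein-coding genes lay within 1 kb of 16.9% of the 4D-only regions (12 of 71, Wilson 95% interval 9.94 to 27.3%) and 32.1% of the WT-only regions (18 of 56, 21.4 to 45.2%). For the regions of all 4 libraries the share was 40.9% (39.4 to 42.5%), and for all 25535 regions it was 27.6% (27.1 to 28.2%). The WT-only share lay between these values and the 4D-only share below both. The intervals of the one-sided sets overlap each other, and they cover counting error only.

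Among the 3697 regions of all 4 libraries, the rank in 4D minus that in WT spread widely in number 1 and less in number 2. Its median was 0.168 points in number 1 and −0.0190 in number 2, and its SD was 21.5 and 10.2 points. The ranks of WT and 4D correlated over these regions with a Spearman's rho of 0.719 in number 1 and 0.901 in number 2. Between the numbers it was 0.518 within WT and 0.527 within 4D. The shifts themselves were almost unrelated between numbers (Pearson's r = 0.0596, Spearman's rho = 0.0719, n = 3697 regions, a description across regions of the same libraries).

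A shift of at least 10 percentile points in both numbers was taken as the size rule. By it, 152 regions ranked higher with 4D, or 4.11% of the 3697, and 138 ranked lower, or 3.73%. Another 225 regions moved past 10 points in opposite directions in the 2 numbers. The balance of higher to lower rested on the shortening. With the lists at full length, 46 regions ranked higher and 358 lower. In limma with the replicate number as a block, 0 of the 3697 regions (0%) passed an adjusted p of 0.05 in either direction, with a smallest adjusted p of 0.836. At an unadjusted p under 0.05 there were 95 regions, or 2.57%, of which 49 were higher and 46 lower. The fit had 1 residual degree of freedom, and its 95% interval for a single region reached a median of 21.9 points to either side, so shifts of 10 points were not detectable by it. On the logit of the rank, which spreads out the ends of the scale, limma called 9 regions higher and 8 lower. Among them were those at GALNT9, CAMTA1, GSK3A and RUNX1 described below. Of the 17, 10 were past 10 points in both numbers. Several rested on a rank near 0 in a single library. The call of smallest p, at ADCY4, ranked 0.159 in WT replicate 1 and shifted by 58.2 and −2.80 points. CLASP1 ranked 0.290 in 4D replicate 1 and shifted by −59.5 and 6.04 points.

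**Figure D2:**
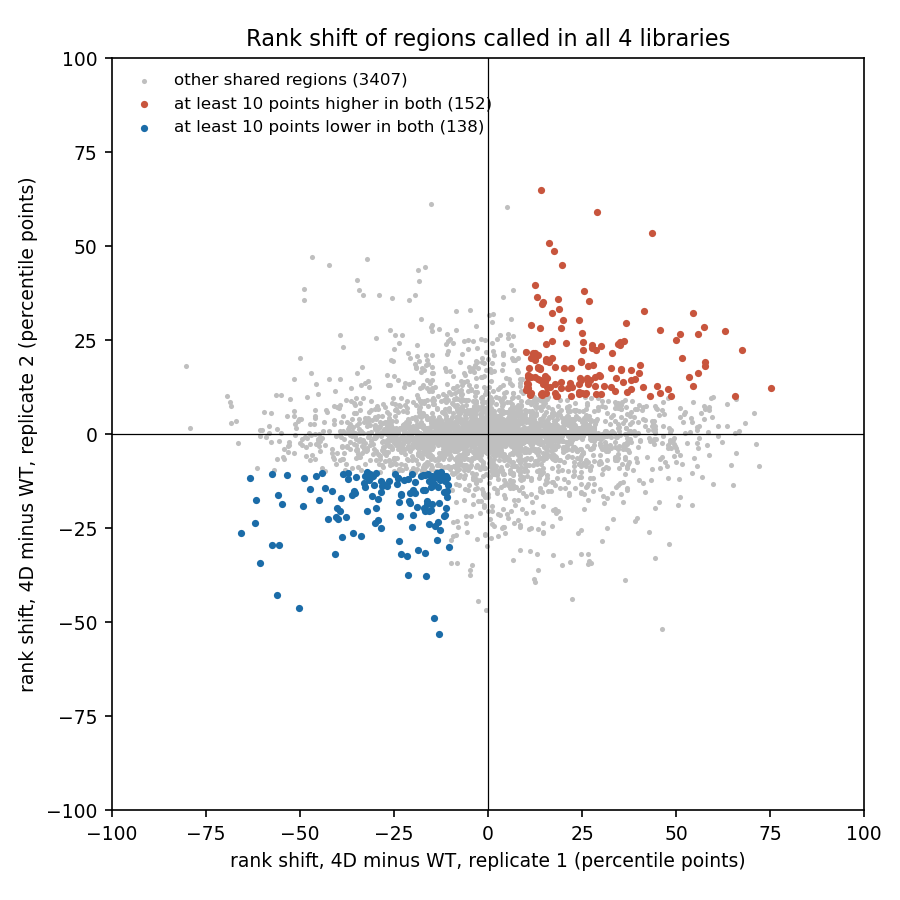
Shift in percentile rank, 4D minus WT, of each of the 3697 regions called in all 4 libraries, in replicate number 1 (horizontal) and number 2 (vertical), in percentile points. Red points are the 152 regions at least 10 points higher in both numbers and blue points the 138 at least 10 points lower, and the grey cloud is wider along number 1 (SD 21.5) than along number 2 (SD 10.2).

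Strong regions moved little. When the shared regions were parted into 5 equal groups by mean rank, the shifts of the highest group had an SD of 7.46 and 2.42 points and 0 of 740 passed 10 points in both numbers in either direction. In the lowest group the SD was 24.6 and 17.3 points, and 76 regions were higher and 68 lower. A rank near 100 cannot rise further, so these spreads are not on equal terms. The summits of the forms lay close together. The median distance between the WT and 4D summits was 37 bp in number 1 and 28 bp in number 2, against 38 bp between the WT libraries and 39 bp between the 4D libraries.

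Of the regions that ranked higher with 4D, ordered by the smaller of the 2 shifts, the first lay at GALNT9, CIAO1, CORO2B, FN3KRP and ETV6. GALNT9, which starts mucin-type O-glycosylation, held a region in its body (chromosome 12, 132314878 to 132315188). It ranked 3.19 and 28.2 in WT and 46.8 and 81.8 in 4D, where −log10 q went from 5.66 to 7.1 in number 1 and from 8.26 to 28.4 in number 2. Both 4D libraries lay above both WT libraries, and the mean difference was 48.6 points (SE 6.34, 95% interval 28.2 to 69.0, limma adjusted p = 0.836). In 4A the region ranked 43.2 and 17.0.

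ETV6 encodes an ETS-family repressor needed for platelet formation, and germline mutations in it cause inherited thrombocytopenia. An internal region 96.3 kb from an end of the gene (chromosome 12, 11798939 to 11799337) ranked 30.5 and 11.1 in WT and 59.6 and 70.1 in 4D, so the forms did not overlap. Its difference was 44.0 points (SE 10.4, 95% interval 10.7 to 77.4). A stronger region of ETV6 (11719695 to 11720231) differed by −8.31 and 0.275 points.

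The promoter of CIAO1, a factor of iron–sulfur cluster assembly in the cytosol, shares its region with the start of TMEM127. The region (chromosome 2, 96265871 to 96266503) ranked 6.25 and 29.6 in WT against 47.8 and 62.3 in 4D, a difference of 37.1 points (SE 6.20, 17.2 to 57.0). The promoter of CHMP4B, a subunit of the ESCRT-III membrane-cutting complex, ranked 29.0 and 48.2 in WT against 74.8 and 76.1 in 4D. In both, each 4D library lay above each WT library.

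The other named regions of this kind lay inside CORO2B, an actin-binding coronin, PARL, a protease of the inner mitochondrial membrane, and MAML3, a coactivator of Notch. One lay at the end of FN3KRP, a kinase acting on glycated proteins. The last pair lay over 100 kb from any protein-coding gene, on chromosome 9 (16240398 to 16240863) and chromosome 12 (115371655 to 115372150). Their differences ranged from 31.2 points at MAML3 to 45.2 points on chromosome 9. At FN3KRP the forms overlapped, since WT replicate 1 (48.4) ranked above 4D replicate 2 (36.1). The regions of GALNT9 and FN3KRP were called in 4A replicate 1 and the other 8 were not, whereas 4A replicate 2 called all 10.

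Of the regions that ranked lower with 4D, the first lay at CTSB, STX1A, CAMTA1, SIGLEC8 and ZSWIM4. The promoter of CAMTA1, a calmodulin-binding transcription activator, lay in a region of chromosome 1 (6784557 to 6785488) that ranked 63.1 and 73.6 in WT and 2.27 and 39.3 in 4D. The −log10 q behind these ranks, and so not a separate measure, went from 17.2 to 1.57 in number 1 and from 25.7 to 7.69 in number 2. After the shortening, which removed only weak WT peaks, the 4D lists had the lower median −log10 q in both numbers. The difference was −47.6 points (SE 9.55, 95% interval −78.2 to −16.9), and the forms did not overlap.

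GSK3A encodes glycogen synthase kinase 3 alpha, a serine/threonine kinase of the insulin and Wnt pathways. Its promoter region (chromosome 19, 42242528 to 42243601) ranked 71.0 and 90.3 in WT against 5.42 and 64.0 in 4D, a difference of −46.0 points (SE 12.8, −86.9 to −5.01). In 4A it ranked 84.1 in replicate 2 and was not called in replicate 1. STX1A, a SNARE of synaptic vesicle fusion, held an internal region at 75.1 and 72.2 in WT against 19.0 and 29.4 in 4D. It ranked 76.5 and 65.5 in 4A.

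A region inside CTSB, the lysosomal protease cathepsin B, ranked 62.8 and 75.9 in WT against 12.7 and 29.6 in 4D. The others lay inside PAM16, a part of the mitochondrial import motor, inside LDLRAD4, an inhibitor of TGF-β signalling, and at the start of DYNLT5, a dynein light chain. Regions outside genes were nearest to SIGLEC8, a receptor of eosinophils and mast cells, at 9.31 kb, to ZSWIM4 at 14.5 kb and to SNRK, a kinase related to AMPK, at 42.3 kb. Their differences ranged from −30.4 points at LDLRAD4 to −43.5 points at SNRK. In all 10 regions named here as lower, each 4D library lay below each WT library. Regions named as higher or lower were chosen by these shifts, which favours such separation. Over the 3697 shared regions, each 4D library lay at least 10 points above each WT library in 49 and below in 41. That rule is stricter, as it asks for a gap of 10 points, which the regions at LDLRAD4 and GSK3A lacked. How many shared regions separate without such a gap was not computed. The regions at CTSB, SIGLEC8, DYNLT5 and GSK3A were not called in 4A replicate 1, and 4A replicate 2 called all 10.

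**Figure D3:**
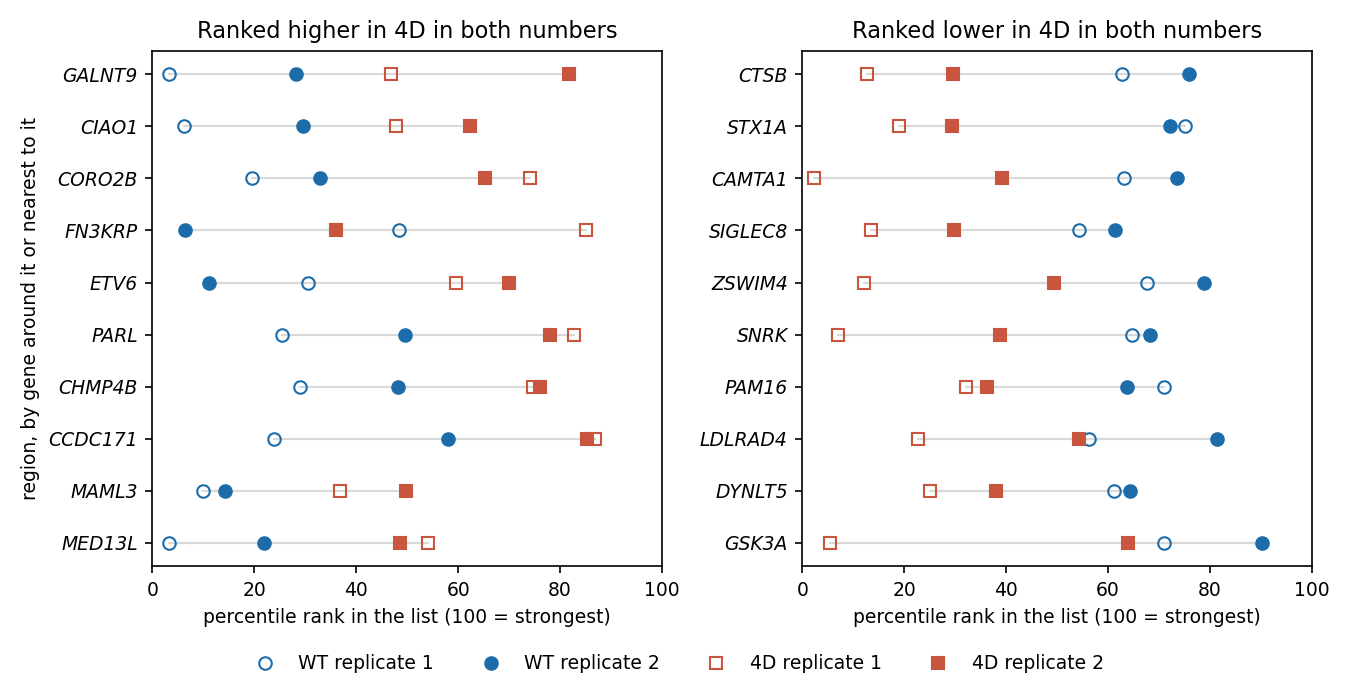
Percentile rank (100 = strongest peak of the list) in each of the 4 libraries of the 10 regions that ranked higher with 4D by the largest margin (left) and the 10 that ranked lower (right), named by the gene around or nearest to them. Blue circles are WT and red squares 4D, open for replicate 1 and filled for replicate 2. CCDC171 and MED13L mark regions over 100 kb from those genes, and at GALNT9 the symbols run from 3.19 in WT replicate 1 to 81.8 in 4D replicate 2.

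RUNX1's own gene held regions that kept their rank and regions that did not. Counting 10 kb to either side of the gene, there were 24 regions, of which WT called 5 and 21 and 4D called 8 and 22. Every WT and 4D library called 5 of them. Both replicate 2 lists called 19, and in 9 of these the forms differed by at least 10 points of rank, in both directions. That count rests on replicate 2 alone. Among the regions of all 4 libraries, a different set, 10.1% were at least 10 points higher in number 2 and 10.7% lower. The share over all regions of both replicate 2 lists was not computed. Of the 9, the gene-body region at 34999479 to 34999932 ranked 54.0 in WT replicate 2 and 5.34 in 4D replicate 2. The region at 34825965 to 34826274 ranked 48.4 and 78.3. The region over the upper end of the gene, where the distal promoter lies, ranked 97.3 and 99.6 in WT and 95.5 and 99.5 in 4D. A region 2.21 kb outside that end (chromosome 21, 35051185 to 35051818) ranked 54.7 and 92.7 in WT and 1.14 and 81.8 in 4D. The −log10 q went from 14.6 to 1.49 in number 1 and from 59.9 to 28.5 in number 2, and the region ranked 24.3 and 93.3 in 4A. 4D lay below WT in both numbers, with shifts of −53.5 and −10.8 points, but 4D replicate 2 lay above WT replicate 1. The difference was −32.2 points (SE 13.7, 95% interval −76.1 to 11.7, limma adjusted p = 0.836). In limma on the logit scale the adjusted p was 0.0159. That scale stretches the low ranks, so this value leans on the 1.14 of 4D replicate 1.

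Among the kinases, cyclins and enzymes that act on RUNX1 or with it, 18 of 36 genes had a region called in all 4 libraries, 25 regions in all. Of these, 2 ranked at least 10 points higher with 4D in both numbers and 2 lower. The promoter region of CCNT1, the cyclin of the elongation factor P-TEFb, ranked 67.7 and 73.7 in WT against 51.0 and 53.4 in 4D. Its difference was −18.5 points (SE 5.74, −36.9 to −0.0407) and the forms did not overlap. The promoter region of PRMT1, the arginine methyltransferase, ranked 56.9 and 83.5 in WT against 20.7 and 67.4 in 4D, a difference of −26.1 points (SE 8.12). There 4D replicate 2 lay above WT replicate 1.

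The higher pair lay beside CDK2, a kinase of the cell cycle, in a region at the start of its neighbour RAB5B, and at the start of KANSL2 near CCNT1. The CDK2 region ranked 48.4 and 54.5 in WT and 63.6 and 68.5 in 4D. HEXIM1, the inhibitor of P-TEFb, held a region called with WT only, at ranks of 22.1 and 1.19. A region outside CDK9, the gene of the P-TEFb kinase, but within 10 kb of it stayed within 1 point in both numbers. It went from 97.4 to 98.4 in number 1 and from 99.0 to 99.2 in number 2. The stronger of the 2 regions of CDKN2D, an inhibitor of G1 kinases, ranked at 99.6 or above in each library. The other shifted by −3.37 and 4.38 points.

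Of the 40 megakaryocyte and platelet genes, 18 had a region called in all 4 libraries, 26 regions in all. None ranked at least 10 points higher with 4D in both numbers and 2 ranked lower. An internal region of TBXAS1, thromboxane synthase, ranked 76.2 and 94.0 in WT and 65.0 and 78.6 in 4D, where 4D replicate 2 lay above WT replicate 1. A region 6.003 kb from PLEK, the platelet kinase substrate pleckstrin, ranked 79.9 and 83.6 in WT and 65.0 and 72.5 in 4D, with each 4D library below each WT library. The differences were −13.3 and −13.0 points, and both intervals held 0 (−31.8 to 5.26 and −31.5 to 5.50, limma adjusted p = 0.836). SELP, the adhesion receptor P-selectin, had a region called with WT and not 4D, at ranks of 25.4 and 2.91 and with both 4A libraries calling it.

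The median shift over the 26 regions was 5.99 points in number 1 and −0.990 in number 2, beside 0.168 and −0.0190 over all shared regions. Its sign thus changed with the number. A region at the myosin gene MYH10 and another outside the transcription factor gene NFE2, within 10 kb, kept ranks between 97.5 and 99.6 in all 4 libraries. Both genes act in platelet formation. ITGA2B, the α subunit of the platelet fibrinogen receptor, ranked 73.2 in WT and 41.3 in 4D in number 1 but 86.2 and 86.5 in number 2. A region outside ALOX12 but within 10 kb of it (chromosome 17, 7014612 to 7015813) moved the other way. Its rank went from 1.28 to 52.5 in number 1 and from 59.0 to 66.1 in number 2. ALOX12 encodes the platelet lipoxygenase and is a known RUNX1 target.

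Of the 43 erythroid genes, 10 had such a region, 12 regions in all. ALAD, an enzyme of heme synthesis, was the single one past 10 points in both numbers. Its promoter region (chromosome 9, 113400996 to 113401544) ranked 32.5 and 52.5 in WT and 56.7 and 82.9 in 4D, with no overlap of the forms. The difference was 27.3 points (SE 5.93, 95% interval 8.20 to 46.3, limma adjusted p = 0.836), and the region ranked 22.7 and 61.4 in 4A. Of the 12 regions, 4 ranked higher with 4D in both numbers, 5 lower and 3 in opposite directions, at any size of shift. A region outside EPOR, the erythropoietin receptor gene, but within 10 kb of it (chromosome 19, 11374545 to 11375151) ranked higher with 4D. It moved from 44.0 to 66.7 in number 1 and from 59.2 to 65.5 in number 2. ANK1, the red cell ankyrin, moved the other way, from 68.0 to 39.7 and from 95.8 to 91.8. The second region of ALAD had shifts of −26.4 and −0.643 points. The list's median was −4.22 and −0.795 points, but 8.15 and −0.149 over its regions within 10 kb of a gene end, so its direction in number 1 turned with that choice. A region near EPB42, a red cell membrane protein, was called with WT only.

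Blood transcription factors, 16 of 36 genes with 27 regions, held 1 region past 10 points in each direction, those at ETV6 and RUNX1 given above. Their median shift was 0.804 and −0.0996 points. Strong regions at LMO2, the adaptor of the TAL1 complex, ZFPM1, a cofactor of GATA1, and STAT5A, which acts below cytokine receptors, ranked between 96.3 and 99.96 in the 4 libraries. The lists of myeloid genes (7 regions), of lymphoid genes (5) and of genes from other tissues (4) had no region past 10 points in both numbers. Their medians were 7.42 and −3.54, 4.09 and 1.33, and 3.68 and 0.393 points in that order. Over the 7 lists, 4 of 105 different regions (3.81%) ranked higher past 10 points and 5 (4.76%) lower, near the 4.11% and 3.73% of all shared regions.

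**Figure D4:**
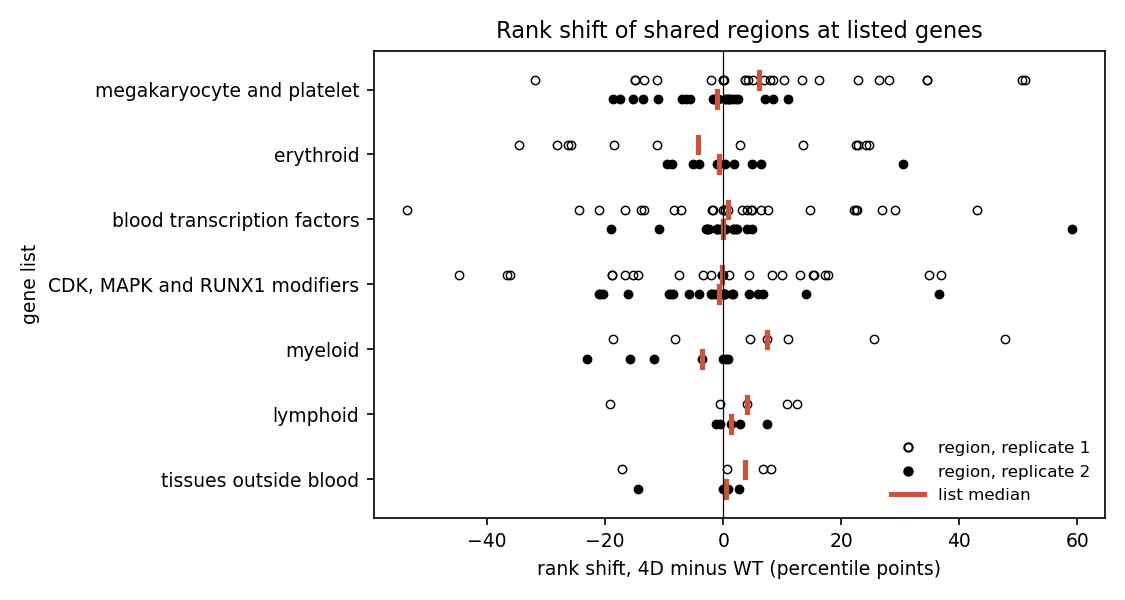
Shift in percentile rank, 4D minus WT, in percentile points (horizontal) of each region called in all 4 libraries that lay from 10 kb before to 10 kb after a gene of the 7 lists (vertical). Open points are number 1, filled points number 2 and red bars list medians. The medians lie between −4.22 and 7.42 points, and most filled points lie nearer to 0 than the open ones.

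Regions that moved lay at gene ends about as often as the other shared regions. The share within 1 kb of a gene end was 39.5% for the higher regions (60 of 152, Wilson 95% interval 32.1 to 47.4%) and 42.8% for the lower regions (59 of 138, 34.8 to 51.1%), and both intervals hold the 40.9% of all shared regions. Gene bodies held 35.5% and 28.3%, and the space between genes 25.0% and 29.0%. Among all kept peaks the share at gene ends was 34.5 ± 8.42% in WT and 33.1 ± 4.99% in 4D (SD, n = 2, exact permutation test, two-sided p = 1). That test did not pair the libraries by number. In number 1 the share was 40.4% in WT and 36.7% in 4D, and in number 2 it was 28.5% and 29.6%.

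Chromosomes differed in number 1. The median shift of the shared regions ran from −7.51 points on chromosome 8 to 7.43 on chromosome 13, and it lay over 2 points from 0 on 9 of the 23 chromosomes. In number 2 it ran from −0.707 to 0.572, and no chromosome passed 2 points. The number of kept peaks differed too in number 1. On chromosome 8, 4D had 0.785 times as many as WT (201 against 256), and on chromosome 13 1.24 times as many (110 against 89). Of the 9 chromosomes, the ratio also went with the shift on 7 (1.11, median 3.80 points) and 15 (1.004, 2.19). So it did on 21 (1.14, 2.94) and 22 (0.832, −2.54). It did not on the others. There it was 1.04 on chromosome 4 (median −4.15 points), 0.923 on chromosome 12 (2.72) and 0.919 on X (3.21). In number 2 the ratios of chromosomes 8 and 13 were 1.03 and 1.03. Removing each chromosome's median shift left 148 regions higher and 139 lower past 10 points, with 142 and 131 of them among the original ones. Chromosome 12 held 18 higher and 6 lower regions among 202, or 8.91% and 2.97%. Over all shared regions the shares were 4.11% and 3.73%. The higher regions of chromosome 12 include those at GALNT9, ETV6 and CDK2, and the lower ones include the CCNT1 promoter region. Chromosome 5 held 12 higher and 6 lower regions among 150. Whether the shares of single chromosomes differ from those of all shared regions was not tested.

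**Figure D5:**
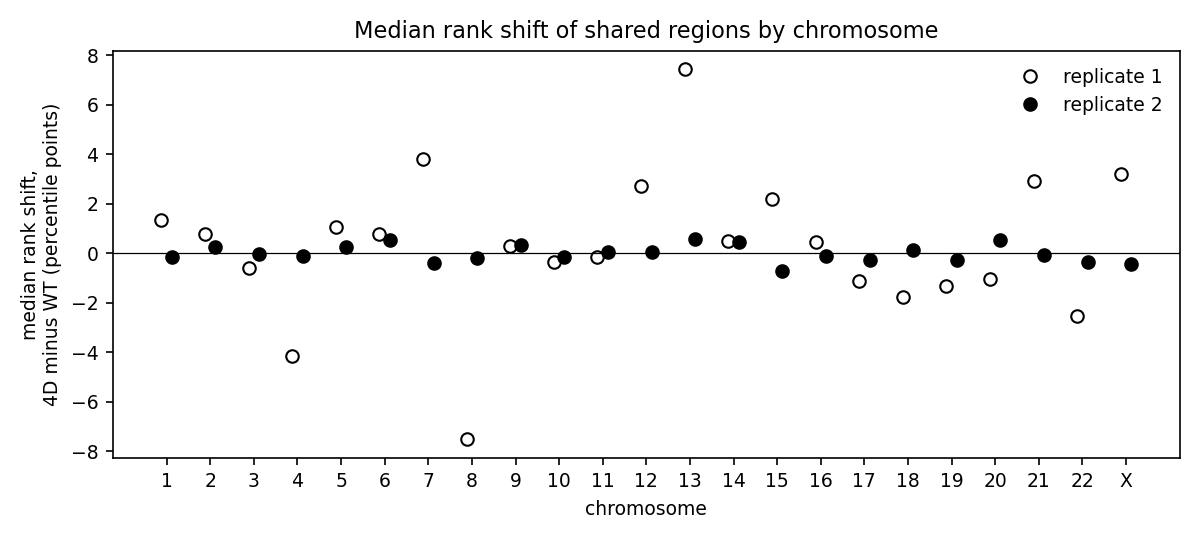
Median shift in percentile rank, 4D minus WT, of the regions called in all 4 libraries, in percentile points (vertical), on each of 23 chromosomes (horizontal). Open points are replicate number 1 and filled points number 2, which stay between −0.707 and 0.572 while number 1 reaches −7.51 on chromosome 8 and 7.43 on chromosome 13.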

How the data were processed

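CUT&RUN with an antibody to the HA tag was done on 500000 HEL cells per sample, with 0.01% digitonin and 12 PCR cycles, per the labels' protocols. Per the submitters' processing notes, the authors' tools were MACS2 2.2.7.1, Bowtie2 2.4.2, cutadapt 3.4, deepTools 3.5.1 and Picard 2.25.6, and the build was hg38. The deposited lists, 1 per library, hold for each peak a score, a fold enrichment (a linear ratio to the empty vector background), and its p-value and q-value as −log10. These are the authors' values. Ranks, filters and calls used them within a list, and where −log10 q is set side by side between lists it describes the lists. Lists hold no read totals, so depth is unknown, and a region that was not called is not shown to be unbound.

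Lists were shortened within each replicate number by −log10 q, with ties broken by −log10 p and then fold. A region took the highest percentile rank of its peaks, tied peaks sharing their mean rank. Shifts were 4D minus WT within a number. Regions called in all 4 libraries were fitted with limma 3.58.1 (R 4.3.3, lmFit and eBayes) on the rank with the number as a block, with Benjamini-Hochberg adjustment over all 3697. The labels give biological replicates but do not say that a number marks a shared day or culture, and 2 pairs are too few to check it. P-values measure the spread of these libraries only. Intervals on shares are Wilson 95% intervals.

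Genes, gene ends and promoters came from RefSeq tables (GRCh38.p14), with promoter entries for 15812 of 19974 protein-coding genes. A region was classed by its middle summit as within 1 kb of a gene end, in a gene body or between genes. Distances to start sites and motifs at summits, planned for all regions, were not analysed here for want of a genome, so gene ends and promoters were used. The members, the 7 gene lists and the tests were chosen with earlier results of these data known. Named regions are the 10 with the largest smaller shift of the 2 numbers in each direction, the 8 one-sided regions with the highest lower rank in each direction, and listed genes with a region past 10 points or one-sided, each named by a gene within 100 kb. One-sided regions named by this rule are given except 1, which is not reported here. Other listed genes were named after their values were seen. Python 3.11.15, pandas 2.3.3 and scipy 1.17.1 were used. Of alternatives, list length, ranking value, merging rule, thresholds, block and left-out libraries were tried.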

Additional observations from a re-analysis of the deposited data

How the results depend on the processing

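Counts of regions depended on list length and thresholds. Regions with 4D only (71) numbered 38 in the full lists, 117 with all lists at one length, 44 at −log10 q of at least 5, 113 with windows of 100 bp around summits and 38 where the full WT lists had no peak, the last added after the data were seen. Those with WT only (56) numbered 157, 136, 26 and 93 in the first 4 settings. Leaving out a replicate number gave 1531 to 4340 and 1570 to 4659, and 3769 to 16320 regions called in all libraries. Regions past 10 points (152 higher, 138 lower) numbered 46 and 358 in the full lists, 247 and 270 by rank among shared regions, 337 and 330 past 5 points, 30 and 26 past 20 points, and 374 to 1064 and 395 to 1021 with a number left out. Ranked by fold enrichment, 107 of the 152 and 108 of the 138 passed again.

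Without the replicate block, asking each 4D library to differ by 10 points from each WT library, 49 regions were higher and 41 lower. limma without the block called 0 regions (21 at an unadjusted p under 0.05), 0 with full lists (154), 0 by fold enrichment (118) and 0 without any 1 library (3 to 86, the lone library taken to vary like the others). On the logit of the rank it called 9 higher and 8 lower (248 unadjusted, smallest adjusted p = 0.0109). Of those 17, 10 were past 10 points in both numbers. The cause was not tested.

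Counting only regions near a gene end (10 kb), the median of the mean shifts went from −2.94 to 1.48 points for erythroid genes, from 0.269 to −0.990 for blood transcription factors and from −1.09 to 1.66 for genes outside blood. With a number left out it was −0.636 to −0.131 for kinases and modifiers, 1.33 to 4.09 for lymphoid genes and 0.393 to 3.68 for genes outside blood. Under 4 alternatives the 28 named shared regions kept the sign of their mean shift, and 16 of 112 values moved by more than their spread. That spread is the SD of a region's shifts in both numbers. Leaving out a number could not change the sign, since these regions were chosen for shifts of the same direction in both. Nor could it move a value by more than that spread. Only the rank by fold enrichment and the rank among shared regions could do either.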
